A study of Bos taurus with 50 samples.

Results

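The endometrium is the lining of the uterus, an epithelium with glands on a vascular stroma, and its gene expression follows the ovarian steroid hormones. While a cow is acyclic, the endometrium is exposed to oestradiol from follicles without progesterone (P4), and once a corpus luteum (CL) has formed, P4 from the CL prepares the luminal and glandular epithelium to feed an embryo. Late in the luteal phase, endometrial oxytocin receptors and prostaglandin synthesis take part in luteolysis, the end of the CL. The comparison described here asked how the endometrial transcriptome changed from 5 to 9 weeks after calving. The cows were acyclic at week 5, and a luteal phase was intended at week 9.

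The comparison used the 23 libraries whose labels place the cow in the group without ovarian cycles at week 5 after calving (NoCycW5), 12 biopsied at week 5 and 11 at week 9, out of 50 libraries in the whole series. The other libraries came from cows that were cycling at week 5 (CycW5, 10 at each week) or were cycling without P4 influence at week 5 (7 libraries, not used here). All animals were Holstein x Jersey dairy cows in their first lactation, kept on the same farm. NoCycW5 cows had a large follicle, no CL and undetectable circulating P4 at week 5, and CycW5 cows had a CL and circulating P4. Between the weeks, every cow received an ovulation synchronization treatment of GnRH, a P4 insert and PGF2α, followed by a second GnRH injection. The treatment was timed to place the biopsy of week 9 in the luteal phase of an estrous cycle. The week 9 samples of the NoCycW5 cows thus differ from their week 5 samples in time after calving, in the hormone treatment and in the intended ovarian state, which cannot be told apart. The study took biopsies from cows at both weeks, but the labels do not say which libraries share a cow, so the weeks were compared as unpaired groups. P values then measure the spread between libraries, some of which may come from the same cow.

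The NoCycW5 libraries had 24235270 to 32446681 reads counted on genes at week 5 (median 29016962.5) and 22707284 to 28694045 at week 9 (median 26707392). No pair was a repeat of the same library, since the mean chi-square per gene between 2 libraries was at least 27.6, where sampling noise alone gives about 1. The running numbers in the sample titles were 1 to 26 for all week 5 libraries and 27 to 50 for all week 9 libraries. The labels do not say what these numbers record, and any effect that goes with them cannot be told apart from the effect of week. Libraries are named here by the first number in their title.

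Of the week 9 libraries, 76 and 91 stood apart from the others. On the first principal component of the 500 most variable genes, which held 56% of the variance, the week 5 libraries lay between -35.5 and -9.67, and libraries 76 and 91 lay among them at -20.9 and -24.9. The other 9 week 9 libraries lay between 15.9 and 48.8, with library 75 lowest. Among the genes that changed at least 2-fold (defined below), library 76 lay inside the range of the week 5 libraries for 78.2% and library 91 for 83.1%. For the other week 9 libraries this share was 19.8 to 41.3%, again highest in library 75, and for a week 5 library against the remaining week 5 libraries it was 73.0 to 94.4%. The libraries labelled 76 and 91 thus had week 5 levels in most of the genes that changed, and neither the correctness of their labels nor the response of these cows to the synchronization treatment was tested. By the study's account, its cows acyclic at week 5 had all begun to cycle by the week 9 biopsy. The study analysed only cows with complete data, and the labels do not say whether libraries 76 and 91 came from those cows. Both libraries were kept in every value below unless stated, and the leading results are also given without them, a choice made after their position was seen. Libraries 76 and 91 were picked for lying among the week 5 libraries, so leaving them out widens the gap between the weeks by construction. Values and BH P without them describe the other libraries and are not a separate test.

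**Figure D1:**
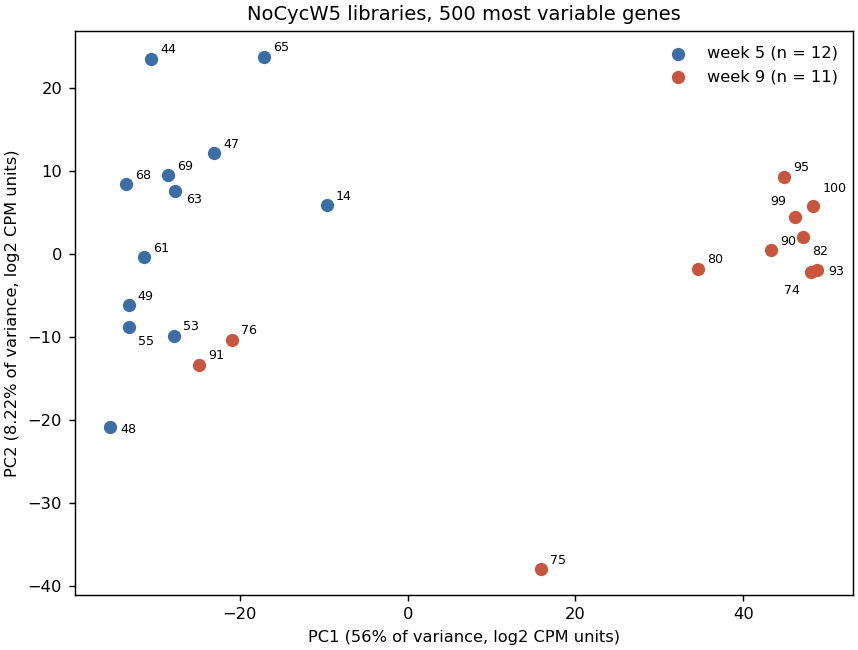
Position of the 23 NoCycW5 libraries on the first and second principal component (PC1 and PC2, in log2 CPM units) of the 500 most variable genes. Each point is 1 library with its number, blue for week 5 and red for week 9. PC1 held 56% of the variance and separated the weeks except for week 9 libraries 76 and 91, which lie at -20.9 and -24.9 among the week 5 libraries.

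Abundance was expressed as CPM, the read count of a gene scaled to library size, after TMM normalization, and differences were tested with edgeR's quasi-likelihood test in a fit that also held the CycW5 libraries. P values were adjusted over the whole table by the Benjamini-Hochberg method (BH P), and a gene at or under 0.05 was counted as a differentially expressed gene (DEG). In the NoCycW5 cows, week 9 and week 5 differed in 5533 DEG, 35.7% of the 15483 genes that entered the test. There were 3009 genes higher (19.4% of those tested) and 2524 lower (16.3%) at week 9. The change was at least 2-fold for 1019 of the higher and 468 of the lower DEG. For 64 higher genes (0.413%) and 55 lower genes (0.355%), the libraries of the 2 weeks did not overlap at all. Without libraries 76 and 91, 6718 genes were DEG, 2105 of them by at least 2-fold, and the weeks did not overlap for 1063 DEG. Of the 5533 DEG, 5325 were also DEG in the same direction without these libraries. The median log2 fold change over all genes tested was -0.01.

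Gene symbols could be attached to 1481 of the 5533 DEG, because the symbols came from 9 lists of genes that the study had called, among them its list for this comparison. Of the 1435 tested genes in the study's own list for this comparison, 92.4% were DEG here, against 29.8% of the 12945 tested genes that stand in none of these 9 lists. The study made its list from only the cows with complete microbiota and transcriptome data, in a model with cow and microbiota terms. That list was drawn from the same experiment, so counts of listed members below describe these libraries and are not independent evidence of a direction. The number of members from outside the study's list for this comparison is given as well for the functional groups. All of those members stand in another of the 9 lists, drawn from the same experiment, and so are not independent evidence either. Over all groups, 351 genes were tested and 277 were DEG, and of the 107 members outside the study's list 49 were DEG, to be read against 35.7% of all genes. Endometrium is a mixture of cell types, so that fewer cells of a type and less RNA per cell cannot be told apart in these samples.

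The smallest BH P among the higher genes with a symbol belonged to ENPP4 (ENSBTAG00000003499), an ectonucleotide pyrophosphatase of the cell surface. ENPP4 had 29.1 to 69.5 CPM (median 40.7) in the week 5 libraries and 86.7 to 619 CPM (median 285) in the week 9 libraries (log2 fold change 2.81 with a standard error of 0.29, BH P = 4.08e-08). The weeks did not overlap, although libraries 76 and 91, with 92.2 and 86.7 CPM, lay far below the other week 9 libraries. MCOLN3 (ENSBTAG00000016982), a cation channel of endosomes and lysosomes, had 1.898 to 14.8 CPM (median 4.06) at week 5 and 23.02 to 329.7 CPM (median 232) at week 9 (log2 fold change 5.26 with a standard error of 0.57, BH P = 5.88e-08), again without overlap. The fold change of MCOLN3 was the largest among the genes whose weeks did not overlap and whose mean reached 1 CPM at either week.

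SLC5A1 (ENSBTAG00000012851), the sodium-coupled glucose transporter of absorptive epithelia, had 0.474 to 3.11 CPM (median 0.828) at week 5 and 2.44 to 122 CPM (median 70.6) at week 9 (log2 fold change 5.73 with a standard error of 0.66, BH P = 1.7e-07). Only week 9 library 76, with 2.44 CPM, fell within the week 5 range, whose upper end was week 5 library 14. SLC23A1, a sodium-coupled vitamin C transporter, had 4.08 to 9.95 CPM (median 5.36) at week 5 and 5.72 to 71.9 CPM (median 45.5) at week 9 (log2 fold change 2.82, BH P = 2.63e-07). EZR, which encodes ezrin, the protein that ties the apical membrane to actin filaments, had 201 to 311 CPM (median 237) at week 5 and 318 to 1287 CPM (median 842) at week 9, without overlap (log2 fold change 1.78, BH P = 1.99e-07). ENPP5, a relative of ENPP4, had a log2 fold change of 2.59, and the weeks were also separate. The remaining genes among the 12 with the smallest BH P were FDFT1 (described with the sterol genes), the surface glycoprotein gene CDCP1 (1.92), the ubiquitin ligase gene RNF157 (1.47), TMEM144 (3.18), ANKRD33B (3.38) and RUNDC1 (0.895), with log2 fold changes in parentheses and BH P of at most 2.25e-07.

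Among genes whose weeks were separate, the next largest increases after MCOLN3 were those of TNMD, PLLP, IL6R, TMEM114, ENPP4, MOGAT1 and GIPC2, with log2 fold changes of 3.52, 3.33, 2.96, 2.93, 2.81, 2.69 and 2.63. IL6R, the receptor subunit that binds interleukin 6, had 17.4 to 57.4 CPM (median 35.9) at week 5 and 57.5 to 481 CPM (median 299) at week 9. TNMD, which encodes tenomodulin, a membrane glycoprotein known from tendon, had 0.868 to 13.96 CPM (median 5.403) and 14.5 to 127 CPM (median 87.5). PLLP, which encodes the membrane protein plasmolipin, was scarce at both weeks, with 0.511 to 2.71 CPM (median 1.07) and 2.73 to 25.6 CPM (median 13.02). In each of these genes libraries 76 and 91 were the lowest or among the 3 lowest of week 9.

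SFRP2 (ENSBTAG00000018563), a secreted modulator of Wnt signaling made by stromal cells, had the smallest BH P of all genes with a symbol and was lower at week 9. Its abundance was 166 to 1015 CPM (median 327) at week 5 and 39.1 to 117 CPM (median 63.1) at week 9 (log2 fold change -2.799 with a standard error of 0.28, BH P = 3.16e-08). The weeks did not overlap, and library 91 was the highest of week 9. EDNRA, the receptor of endothelin on vascular smooth muscle and stroma, had 47.7 to 89.8 CPM (median 69.4) and 19.7 to 50.4 CPM (median 27.6) (log2 fold change -1.24, BH P = 6.68e-07), with library 91 alone inside the week 5 range at 50.4 CPM. FGFR1, a fibroblast growth factor receptor, had 29.8 to 81.1 CPM (median 40.3) and 12.6 to 29.1 CPM (median 21.4), without overlap (log2 fold change -1.201, BH P = 2.56e-06). RBPMS, an RNA-binding protein, had a log2 fold change of -1.02, and the other 8 of the 12 lower genes with the smallest BH P were ribosomal protein genes.

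The largest decreases among genes with separate weeks were those of MC4R, CPA6, SFRP2, CDC42EP3, GNA14, FGFR1, SERTAD4 and HOXD11. CPA6, a secreted carboxypeptidase, had 3.83 to 21.6 CPM (median 5.92) at week 5 and 0.414 to 3.42 CPM (median 0.876) at week 9 (log2 fold change -2.83, BH P = 7.9e-06). CDC42EP3, a Cdc42 effector that acts on actin, had 23.7 to 80.8 CPM (median 34.1) and 6.28 to 20.5 CPM (median 10.7) (log2 fold change -1.697), and GNA14, a G protein subunit, had 8.57 to 31.9 CPM (median 11.9) and 3.41 to 8.34 CPM (median 4.67) (log2 fold change -1.55). HOXD11, a homeobox transcription factor, had 28.99 to 53.9 CPM (median 45.99) at week 5 and 13.9 to 26.4 CPM (median 20.1) at week 9 (log2 fold change -1.17). MC4R, a melanocortin receptor, was near the limit of counting, with 0.479 to 4.49 CPM (median 0.865) at week 5 and 0 to 0.406 CPM (median 0) at week 9, so that the size of its fitted fold change depends on the prior count.

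**Figure D2:**
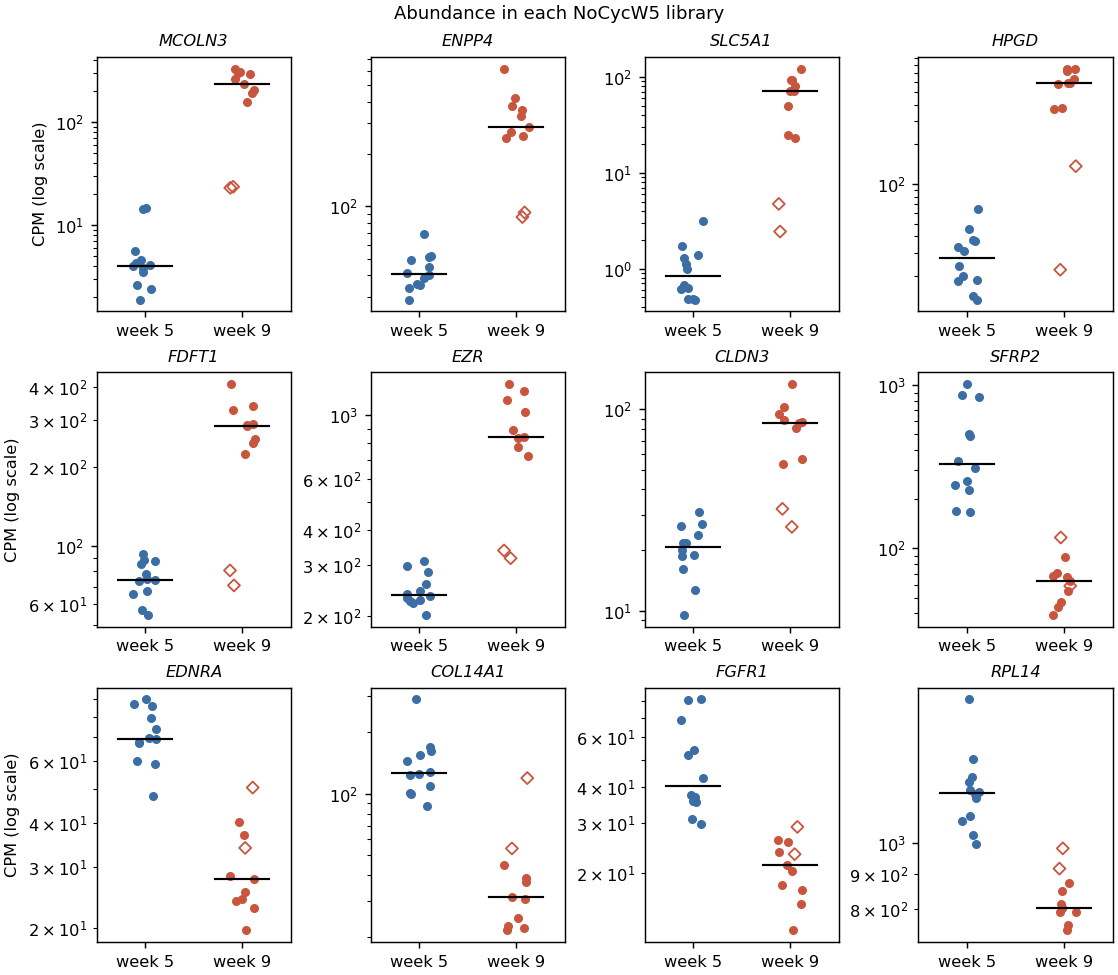
Abundance (CPM, log axis) of 12 genes in each NoCycW5 library at week 5 (blue, n = 12) and week 9 (red, n = 11). Points are libraries, open diamonds are week 9 libraries 76 and 91, and bars are medians. In the 7 genes of the upper panels that rose, these 2 libraries sit at the lower end of week 9 or within week 5, whereas SFRP2 was low in every week 9 library (39.1 to 117 CPM).

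Of the steroid receptors and their cofactors, 5 members could be tested, 2 of which were higher and 1 lower at week 9, with a median log2 fold change of -0.05. ESR1, the main oestrogen receptor of the endometrium, had 53.1 to 235 CPM (median 128) at week 5 and 51.2 to 151 CPM (median 66.3) at week 9 (log2 fold change -0.67 with a standard error of 0.23, BH P = 0.022). Of the 11 week 9 libraries 10 lay inside the week 5 range, and the 3 highest week 9 libraries were 80, 91 and 76, with 151, 115 and 105 CPM. ESR2, the second oestrogen receptor, was higher at week 9, with 0.253 to 5.07 CPM (median 1.82) at week 5 and 1.65 to 22.9 CPM (median 11.2) at week 9 (log2 fold change 2.41, BH P = 1.11e-05). FKBP5, a chaperone of steroid receptors that steroid hormones induce in many tissues, had 50.3 to 112 CPM (median 62.9) and 70.4 to 259 CPM (median 184) (log2 fold change 1.35, BH P = 2.74e-05). The coactivator NCOA3 did not pass the test, with a log2 fold change of -0.05 (BH P = 0.861). Outside the study's list, none of 3 members was higher and 1, ESR1, was lower.

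In the prostaglandin and oxytocin pathway, 6 of 11 members tested were higher and 3 lower at week 9, with a median log2 fold change of 1.01. Prostaglandins are made from arachidonate, which phospholipases release from membranes. The phospholipase gene PLA2G4A had 28.1 to 58.4 CPM (median 41.98) at week 5 and 58.6 to 196 CPM (median 119) at week 9, without overlap (log2 fold change 1.57 with a standard error of 0.24, BH P = 5.76e-06). The secreted phospholipase gene PLA2G10 had 5.79 to 80.7 CPM (median 21.4) and 33.6 to 340.0 CPM (median 208) (log2 fold change 2.74, BH P = 0.000131), with libraries 76, 91 and 80 inside the week 5 range. PTGS2, the inducible cyclooxygenase that commits arachidonate to prostaglandins, had 8.38 to 47.5 CPM (median 22.6) and 20.7 to 677 CPM (median 253) (log2 fold change 3.36 with a standard error of 0.61, BH P = 5.39e-05). Library 91 was the only week 9 library within the week 5 range of PTGS2, and library 76, with 98.9 CPM, was above it.

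HPGD (ENSBTAG00000025942), the dehydrogenase that inactivates prostaglandins, changed most among the higher members, with 13.3 to 64.3 CPM (median 27.3) at week 5 and 22.4 to 752 CPM (median 580.3) at week 9 (log2 fold change 4.07 with a standard error of 0.49, BH P = 2.89e-07). For HPGD, library 76 had 22.4 CPM, inside the week 5 range, and library 91 had 137 CPM, between the weeks. ACSL3 and ACSL4, which activate long-chain fatty acids including arachidonate, rose by 1.01 and 1.03 on the log2 scale (BH P = 0.000374 and 0.0246) and were the only members outside the study's list. The ACSL4 call rested on week 9 library 80, with 533 CPM, without which the log2 fold change was 0.62 (BH P = 0.143). PTGES, a synthase of prostaglandin E2, was lower at week 9, with 5.21 to 25.4 CPM (median 9.87) at week 5 and 1.52 to 11.1 CPM (median 2.12) at week 9 (log2 fold change -1.700, BH P = 0.00252). PTGFR, the receptor of prostaglandin F2α, had 1.42 to 61.4 CPM (median 4.82) and 0 to 3.58 CPM (median 0.0762) (log2 fold change -4.89, BH P = 0.00022), and library 91, with 3.58 CPM, was the only one of week 9 inside the week 5 range. With 3 week 9 libraries at 0 the size of the PTGFR fold change is uncertain, and it was -6.57 without library 91 and -7.34 without libraries 76 and 91. The prostaglandin D2 receptor PTGDR had a log2 fold change of -0.77 and did not pass the test (BH P = 0.0605), but was lower without libraries 76 and 91 (log2 fold change -1.18, BH P = 0.00397).

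OXTR, the oxytocin receptor, had a BH P just under the threshold, and its call was lost in most fits that left out 1 library. It had 79.5 to 224 CPM (median 112) in the week 5 libraries. At week 9 it ranged from 2.85 to 165 CPM with a median of 9.08, in which libraries 91, 76 and 80 had 165, 95.1 and 83.2 CPM, library 75 had 38.2 CPM and the other 7 at most 10.9 CPM. The log2 fold change was -1.67 (standard error 0.68, BH P = 0.0496), and OXTR stayed a DEG in 4 of the 23 fits that each left out 1 library. In the single-library fits that lost the call, the log2 fold change was -1.71 to -1.56, near the value with all libraries. Without libraries 76 and 91 its log2 fold change was -2.74 (BH P = 0.00211). OXT, the gene of oxytocin itself, had at most 5.40 CPM in any library and a log2 fold change of -1.395 (BH P = 0.215), which was -3.63 (BH P = 0.0031) without these libraries.

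**Figure D3:**
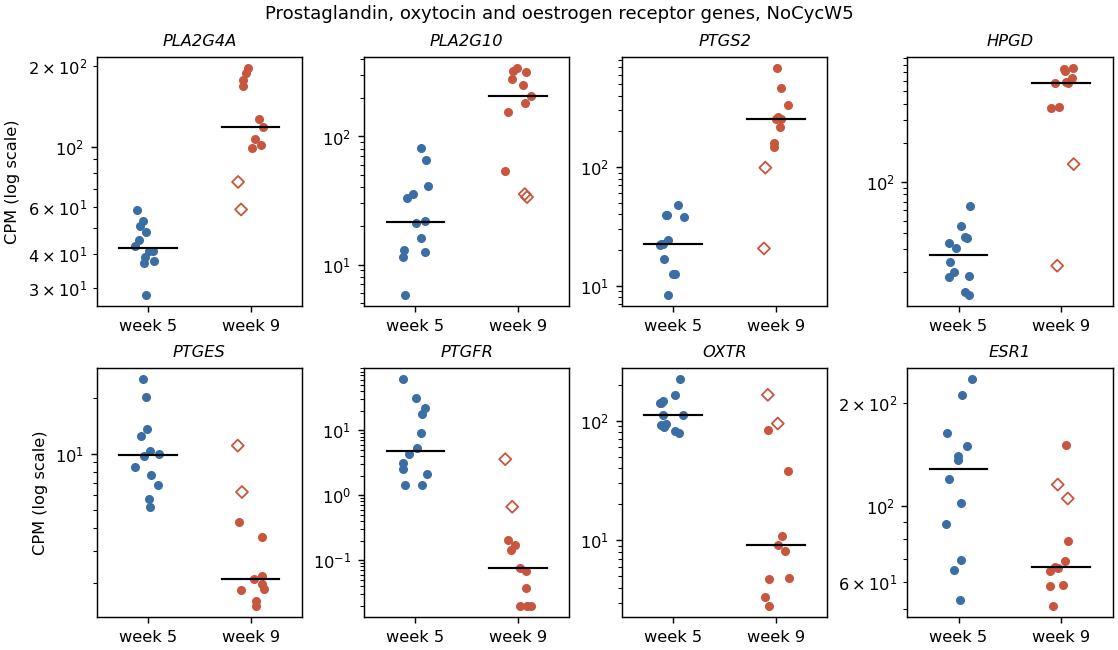
Abundance (CPM, log axis) of 8 prostaglandin, oxytocin and oestrogen receptor genes in each NoCycW5 library at week 5 (blue, n = 12) and week 9 (red, n = 11). Open diamonds are week 9 libraries 76 and 91, bars are medians, and values under 0.02 CPM are drawn at 0.02. OXTR was at or under 10.9 CPM in 7 week 9 libraries and between 38.2 and 165 CPM in the other 4.

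Of 18 genes described as luteal-phase or P4-responsive in ruminant endometrium that were tested, 11 were higher and 5 lower at week 9, with a median log2 fold change of 0.94. Outside the study's list, 1 of 4 was higher and 2 were lower. MEP1B, which encodes a subunit of the protease meprin, had 0.348 to 32.2 CPM (median 1.45) at week 5 and 11.95 to 669 CPM (median 328) at week 9 (log2 fold change 5.804 with a standard error of 1.07, BH P = 6.3e-05). DGAT2, an enzyme of triglyceride synthesis, had 4.05 to 10.9 CPM (median 6.59) and 6.46 to 103 CPM (median 76.4) (log2 fold change 3.09, BH P = 3.29e-05). Against the direction of most, IGFBP3, a carrier of insulin-like growth factors, was lower at week 9, with 113 to 607 CPM (median 260.4) at week 5 and 27.3 to 224 CPM (median 49.03) at week 9 (log2 fold change -1.96, BH P = 6.88e-05), and SPP1, the adhesion protein osteopontin, had 17.4 to 408 CPM (median 35.2) and 3.54 to 57.4 CPM (median 18.4) (log2 fold change -1.78, BH P = 0.0116). The SPP1 value rested on week 5 library 61, with 408 CPM, without which the log2 fold change was -0.96 (BH P = 0.114). For MEP1B, leaving out week 5 library 14 gave a log2 fold change of 6.52, and for IGFBP3 leaving out libraries 76 and 91 gave -2.61. LPL, CLDN10 and SLC7A2 were the other lower members (log2 fold changes -1.49, -1.77 and -0.95).

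All 18 tested members of sterol synthesis and uptake were DEG and higher at week 9, with a median log2 fold change of 1.48 and a range of 0.67 to 2.18. Of 31 genes listed, 19 had an identifier, and the others were not followed. The tested members were 17 genes from the study's list for this comparison and 1 from outside it. Their calls were thus largely fixed by how members could be named. FDFT1 (ENSBTAG00000012432), squalene synthase, the first enzyme committed to sterols, had 54.6 to 93.3 CPM (median 74.4) at week 5 and 70.7 to 412 CPM (median 284) at week 9 (log2 fold change 1.77 with a standard error of 0.21, BH P = 1.77e-07). CYP51A1, which removes a methyl group from lanosterol, had 29.3 to 79.2 CPM (median 48.9) and 60.03 to 401 CPM (median 237) (log2 fold change 2.18, BH P = 3.4e-07). IDI1, which isomerises isopentenyl diphosphate, had 28.8 to 65.6 CPM (median 38.3) and 36.97 to 249 CPM (median 152) (log2 fold change 1.795, BH P = 6.25e-07). Summed over the 18 genes, abundance was 579 to 1024 CPM at week 5 (median 707) and 729 to 3442 CPM at week 9 (median 2371). Libraries 91 and 76, with 729 and 804 CPM, lay inside the week 5 range, and the other 9 week 9 libraries, with 1520.0 CPM or more, lay above it.

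Fatty acid and triglyceride metabolism had 30 members tested, of which 22 were higher and 4 lower at week 9, with a median log2 fold change of 0.79. Outside the study's list, 5 of 10 were higher and 1 was lower. SLC27A6, a fatty acid transport protein, had 0.0897 to 10.7 CPM (median 0.9204) at week 5 and 2.23 to 122 CPM (median 74.2) at week 9 (log2 fold change 5.098 with a standard error of 0.74, BH P = 2.4e-06). Without week 5 library 14 the log2 fold change of SLC27A6 was 5.85. ELOVL6, a fatty acid elongase, had 17.7 to 51.2 CPM (median 28.5) and 33.3 to 139 CPM (median 92.2) (log2 fold change 1.62), and ACSS1, which makes acetyl-CoA in mitochondria, had 41.4 to 81.3 CPM (median 54.7) and 65.3 to 349.7 CPM (median 225) (log2 fold change 1.78). CROT, a peroxisomal carnitine acyltransferase, had a log2 fold change of 1.29. The 4 lower members were PLIN4, a coat protein of lipid droplets (-4.86), LPL, the lipase that releases fatty acids from lipoproteins (-1.49), AGPAT4 (-1.16) and the fatty acid binding protein FABP5 (-0.75). PLIN4 spread over 0.448 to 56.9 CPM (median 3.599) at week 5 and had at most 1.18 CPM at week 9. AGPAT4, an acyltransferase of phospholipid synthesis, had 7.33 to 11.9 CPM (median 9.28) and 2.72 to 7.19 CPM (median 3.58), without overlap.

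Among sugar, vitamin and metal transporters, 16 of 21 members tested were higher and 1 was lower at week 9, with a median log2 fold change of 1.03, and outside the study's list 5 of 9 were higher. CYBRD1, a ferric reductase of iron uptake, had 14.01 to 25.7 CPM (median 18.1) at week 5 and 18.5 to 154 CPM (median 88.5) at week 9 (log2 fold change 2.28, BH P = 8.39e-06). The heme exporter FLVCR1 changed less but its weeks did not overlap, with 20.2 to 38.6 CPM (median 29.8) and 39.3 to 84.4 CPM (median 58.2) (log2 fold change 0.99, BH P = 4.1e-06). The lower member was SLC39A14, a zinc and iron importer, with 43.8 to 116 CPM (median 49.8) and 24.8 to 63.9 CPM (median 32.6) (log2 fold change -0.66, BH P = 0.0451), which stayed a DEG in 13 of the 23 fits that each left out 1 library.

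Amino acid transporters had 10 members tested, of which 6 were higher and 2 lower, with a median log2 fold change of 0.95, and outside the study's list 2 of 5 were higher and 1 lower. SLC1A1, a glutamate and aspartate transporter, had 31.9 to 264 CPM (median 78.7) at week 5 and 237 to 2373 CPM (median 1616) at week 9 (log2 fold change 3.71 with a standard error of 0.49, BH P = 8.45e-07), with libraries 76 and 91 inside the week 5 range. SLC7A4 and SLC38A7 rose by 1.67 and 1.28 on the log2 scale (BH P = 2.32e-05 and 2.4e-05), and the lysosomal amino acid sensor SLC38A9 by 0.63 (BH P = 3.91e-05). The neutral amino acid transporter SLC1A5 was lower, with 24.3 to 66.4 CPM (median 34.5) and 9.02 to 29.01 CPM (median 16.1) (log2 fold change -1.05, BH P = 0.00385), as was the cationic amino acid transporter SLC7A2.

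Of 28 tested genes of tight junctions, desmosomes and gap junctions, which hold epithelial cells together and connect them, 21 were higher and 3 lower at week 9, with a median log2 fold change of 1.48. Outside the study's list 4 of 8 were higher. CLDN3, a claudin of the tight junction, had 9.52 to 30.8 CPM (median 20.8) at week 5 and 26.1 to 134 CPM (median 85.2) at week 9 (log2 fold change 1.89 with a standard error of 0.26, BH P = 1.5e-06), and CLDN7 had 33.6 to 88.2 CPM (median 57.5) and 65.4 to 286 CPM (median 188) (log2 fold change 1.61). TJP3, a scaffold protein of the tight junction, had 12.7 to 27.1 CPM (median 22.1) and 16.8 to 126 CPM (median 80.1) (log2 fold change 1.84). The lower members were CLDN10, NECTIN3 and MPDZ, with log2 fold changes of -1.77, -0.88 and -0.45. The claudin gene CLDN10 had 25.5 to 131 CPM (median 54.9) at week 5 and 3.14 to 61.8 CPM (median 9.09) at week 9, and its log2 fold change was -2.72 without libraries 76 and 91. The adhesion receptor gene NECTIN3 had 13.1 to 41.9 CPM (median 17.7) and 7.23 to 16.8 CPM (median 10.7). Of 7 integrins tested, 5 were higher and none lower (median log2 fold change 0.84), and outside the study's list 2 of 4 were higher. They included the pair of genes ITGB4 and ITGA6, whose products form the receptor that anchors epithelium to laminin. ITGB4 had 49.8 to 121 CPM (median 81.4) and 87.2 to 393 CPM (median 285) (log2 fold change 1.59, BH P = 3.72e-06), and ITGA6 had 113 to 229 CPM (median 151) and 200.1 to 476 CPM (median 262) (log2 fold change 0.84, BH P = 9.23e-05).

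Markers of epithelium were higher as well. All 10 epithelial markers with an identifier (of 16 listed) were DEG and higher at week 9, 3 of them from outside the study's list, with a median log2 fold change of 1.29. A marker had an identifier only if it stood with a symbol in any of the 9 lists of genes that the study had called. The other listed markers were not followed. CLDN3, CLDN4 and CLDN7 are counted both here and among the junction genes. EPCAM, an adhesion molecule that defines epithelium, had 91.8 to 301 CPM (median 208) at week 5 and 215 to 635 CPM (median 500.4) at week 9 (log2 fold change 1.09 with a standard error of 0.23, BH P = 0.000364), and KRT8, a keratin of simple epithelia, had 65.5 to 122 CPM (median 99.7) and 112 to 191 CPM (median 153) (log2 fold change 0.64, BH P = 4.95e-05). RAB25, a GTPase of epithelial vesicle recycling, had 10.8 to 22.3 CPM (median 17.8) and 22.4 to 49.1 CPM (median 33.6), without overlap. Their summed abundance was 459 to 914 CPM at week 5 (median 681) and 757 to 2437 CPM at week 9 (median 1801), and libraries 76 and 91 had 757 and 858 CPM. The share of epithelium in the biopsies was not measured, and its part in the changes of transporter, junction and sterol genes was not tested.

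Of 15 stromal markers, 3 had an identifier, and they did not move together. PI16, a marker of fibroblasts around vessels, had 4.69 to 364 CPM (median 20.7) at week 5 and 0.971 to 8.19 CPM (median 2.16) at week 9 (log2 fold change -4.15, BH P = 1.8e-05), with week 5 library 48 far above the others and a log2 fold change of -3.06 without it. FBLN1, a matrix protein of stroma, had 828 to 1357 CPM (median 1101) and 383 to 835 CPM (median 519) (log2 fold change -0.999, BH P = 3.72e-06), and PDGFRA, a receptor that defines stromal fibroblasts, had 320.2 to 674 CPM (median 468) and 389 to 777 CPM (median 580.2) and did not pass the test (log2 fold change 0.295, BH P = 0.137). Of 12 endothelial markers, 5 had an identifier, none from the study's list, and 2 of them were lower at week 9, a share near the 35.7% of all genes that were DEG. VWF, the von Willebrand factor of endothelium, had 188 to 523 CPM (median 329) and 70.99 to 299 CPM (median 214) (log2 fold change -0.62, BH P = 0.00968), and ROBO4 had a log2 fold change of -0.57 (BH P = 0.017). CDH5, the cadherin that defines endothelial junctions, had 33.8 to 78.7 CPM (median 58.9) and 34.2 to 71.5 CPM (median 53.7) (log2 fold change -0.100, BH P = 0.594), and ESAM and SOX18 had log2 fold changes of -0.25 and -0.09 (BH P = 0.223 and 0.716). Of the markers of ciliated cells only CCNO had an identifier, with 0 to 10.3 CPM (median 1.03) and 0 to 3.43 CPM (median 0.139) (log2 fold change -2.56, BH P = 0.0182). Library 76 had the 3.43 CPM, and without it the log2 fold change of CCNO was -3.95. None of the listed markers of leukocytes, plasma cells, smooth muscle or blood, and no listed interferon-stimulated gene, stood with a symbol in the study's 9 lists of called genes. They had no identifier here for that reason, and these cells were not followed.

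Collagens, laminins and other matrix proteins had 23 members tested, of which 6 were higher and 12 lower at week 9, with a median log2 fold change of -0.68. Outside the study's list, 1 of 5 was higher and 1 lower. COL14A1, a collagen that binds to fibrils, had 87.4 to 289.6 CPM (median 126) at week 5 and 21.5 to 119 CPM (median 31.4) at week 9 (log2 fold change -1.79 with a standard error of 0.28, BH P = 5.41e-06), and only library 91 lay inside the week 5 range. LTBP1, which stores latent TGF-beta in the matrix, had 77.3 to 472 CPM (median 117) and 32.8 to 90.1 CPM (median 66.96) (log2 fold change -1.598), and LAMA1, a laminin chain, had 3.07 to 23.1 CPM (median 15.2) and 1.04 to 9.66 CPM (median 2.23) (log2 fold change -2.31). The higher members were all components of basement membranes except COL25A1 (log2 fold change 1.501). LAMA2 had 101 to 156 CPM (median 117) and 127 to 586 CPM (median 394) (log2 fold change 1.52, BH P = 1.57e-05), and LAMC3, NID1, COL4A3 and COL4A4 had log2 fold changes of 0.89, 0.602, 1.51 and 1.38. Summed over the list, abundance was 5802 to 9398 CPM at week 5 (median 7799) and 3230.0 to 8426 CPM at week 9 (median 3903), with libraries 76 and 91 highest of week 9 at 8426 and 7448 CPM.

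Metalloproteases and their inhibitors, which remodel the matrix, had 7 members tested, all from the study's list, of which 5 were higher and 1 lower at week 9. TIMP2, an inhibitor of matrix metalloproteases, had 141 to 369 CPM (median 215) at week 5 and 206 to 2031 CPM (median 1551) at week 9 (log2 fold change 2.47 with a standard error of 0.37, BH P = 3.72e-06). ADAM12, a membrane-bound protease, had 0.628 to 10.9 CPM (median 2.41) and 2.001 to 69.9 CPM (median 28.4) (log2 fold change 3.11), and PLAT, the tissue plasminogen activator, had 258 to 569 CPM (median 418) and 505 to 1071 CPM (median 729.7) (log2 fold change 0.83). PLAT is a serine protease that the list also counts. MEP1B, described above, had the largest change of the list (log2 fold change 5.80). ADAMTS18 was lower, with 2.57 to 36.4 CPM (median 5.86) and 0.288 to 6.13 CPM (median 0.535) (log2 fold change -2.29, BH P = 0.00962, and -3.03 without libraries 76 and 91).

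Wnt, TGF-beta and growth factor signaling held members that moved both ways. Of 39 tested, 16 were higher and 12 lower at week 9 (median log2 fold change 0.42), and outside the study's list 4 of 14 were higher and 1 lower. The Wnt ligands differed among themselves. WNT11 had 1.06 to 3.89 CPM (median 1.97) at week 5 and 1.58 to 30.7 CPM (median 22.3) at week 9 (log2 fold change 3.29, BH P = 1.35e-06), WNT16 had 5.97 to 27.3 CPM (median 13.6) and 15.97 to 66.1 CPM (median 50.4) (log2 fold change 1.58), and WNT4 had 2.95 to 10.9 CPM (median 6.02) and 0.571 to 6.57 CPM (median 1.25) (log2 fold change -1.77, BH P = 0.00127, and -2.43 without libraries 76 and 91). Of their receptors, FZD5 had a log2 fold change of 2.79 and FZD2 one of -1.25, and the coreceptors ROR2 and ROR1 had -1.14 and -0.69. AXIN2, a feedback inhibitor that is a common readout of Wnt signaling, had 40.4 to 71.2 CPM (median 55.6) and 20.8 to 50.3 CPM (median 26.2) (log2 fold change -0.86, BH P = 8.62e-05), and the transcription factor TCF7L1, from outside the study's list, had 17.2 to 23.9 CPM (median 19.2) and 9.53 to 17.6 CPM (median 11.2) (log2 fold change -0.69). FST, follistatin, which binds activin, had 3.102 to 16.99 CPM (median 8.07) and 2.73 to 133 CPM (median 102) (log2 fold change 3.29 with a standard error of 0.49, BH P = 3.21e-06). In the fibroblast growth factor group, the ligand FGF7 and the receptors FGFR1 and FGFR2 were all lower, with log2 fold changes of -1.76, -1.201 and -1.63. FGFR2 had 51.00 to 267 CPM (median 174) and 30.4 to 139 CPM (median 47.7). ANGPT2, a ligand of the endothelial receptor TIE2, had a log2 fold change of -0.92.

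Genes of the lysosome and the proton pump had 26 members tested, of which 17 were higher and 2 lower at week 9, with a median log2 fold change of 0.55, and outside the study's list 3 of 10 were higher. After MCOLN3, the smallest BH P belonged to CLCN3, a chloride exchanger of endosomes, with 18.7 to 33.4 CPM (median 22.6) at week 5 and 30.7 to 63.5 CPM (median 53.98) at week 9 (log2 fold change 1.12, BH P = 6.45e-07). GM2A, which presents gangliosides to their hydrolase, had 21.04 to 45.2 CPM (median 28.2) and 25.8 to 529 CPM (median 248) (log2 fold change 3.01), and NPC1, which exports cholesterol from lysosomes, had 38.9 to 63.1 CPM (median 43.1) and 39.8 to 252 CPM (median 145) (log2 fold change 1.68). The 2 lower members were proton pump subunits. ATP6V0D2 had 2.71 to 19.6 CPM (median 6.31) at week 5 and 0.388 to 4.12 CPM (median 1.81) at week 9 (log2 fold change -1.82), and ATP6V1G3 had 0.0949 to 4.78 CPM (median 1.85) and 0.0357 to 1.42 CPM (median 0.403) (log2 fold change -2.002).

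Ribosomal protein genes formed the most uniform group among the members that could be tested. The list named 81 genes, for which only 46 identifiers were found in the study's lists of called genes. All 46 identifiers tested were lower at week 9 and all were DEG, with log2 fold changes of -0.71 to -0.37 and a median of -0.51, but 45 of them stand in the study's list, and such genes have near-identical copies among which reads can be split. RPL14 had 997 to 1622 CPM (median 1183) at week 5 and 744 to 982 CPM (median 803) at week 9, without overlap (log2 fold change -0.53 with a standard error of 0.07, BH P = 1.41e-06). Summed over the 46, abundance was 29189 to 51339 CPM at week 5 (median 37170.0) and 24142 to 31433 CPM at week 9 (median 25992). Libraries 91 and 76, with 29620.0 and 31433 CPM, were the highest of week 9 and the only ones above the lowest week 5 library. Of 18 translation factors, 16 were lower and 1 higher (median log2 fold change -0.35), including all 6 from outside the study's list. The elongation factor gene EEF1D had 181 to 329 CPM (median 238) and 144 to 195 CPM (median 155) (log2 fold change -0.63), the ribosome-bound scaffold RACK1 had 1287 to 2706 CPM (median 1718) and 949 to 1358 CPM (median 1053) (log2 fold change -0.69), and EIF3F, an initiation factor subunit from outside the study's list, had 144 to 239 CPM (median 184) and 124 to 167 CPM (median 138) (log2 fold change -0.46, BH P = 1.62e-05). EEF1A2, an elongation factor otherwise known from muscle and brain, had 0.693 to 30.7 CPM (median 4.46) and 0.111 to 2.51 CPM (median 0.6900) (log2 fold change -3.81). The only higher member was EIF2B2, a subunit of the exchange factor for EIF2, with 38.5 to 47.5 CPM (median 43.9) and 41.8 to 62.2 CPM (median 51.97) (log2 fold change 0.29, BH P = 0.00335).

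Only 2 of the 13 genes encoded by mitochondrial DNA had an identifier, and both stand in the study's list and were lower at week 9. CYTB, a subunit of respiratory complex III, had 2440.4 to 5384 CPM (median 4337) at week 5 and 2078 to 5188 CPM (median 2324) at week 9 (log2 fold change -0.59, BH P = 0.00634), and ND3, a subunit of complex I, had a log2 fold change of -0.64 (BH P = 0.000831). For CYTB, library 91 was the highest of week 9, followed by 76, 93 and 80.

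Cytokines, chemokines and their receptors had 23 members tested, of which 6 were higher and 3 lower at week 9, with a median log2 fold change of -0.00, and outside the study's list none of 10 was higher and 2 were lower. The share of DEG in this group was near that of all genes, 35.7%. Beside IL6R, the receptor gene IL31RA was higher, with at most 0.237 CPM at week 5 and 0.0369 to 16.8 CPM (median 7.46) at week 9 (BH P = 6.29e-07). PTX3, a secreted pattern recognition protein, had 0.408 to 14.3 CPM (median 1.84) and 1.12 to 95.6 CPM (median 26.3) (log2 fold change 3.099, BH P = 0.000172), and MYD88, an adaptor of Toll-like receptors, had a log2 fold change of 0.39. The lower members were TNFRSF25, given with the apoptosis regulators, and a pair of chemokines that guide lymphocytes in lymphoid tissue. CCL21 had 0.0408 to 18.8 CPM (median 1.64) at week 5 and at most 0.111 CPM at week 9 (BH P = 8.7e-06), and CXCL13, from outside the study's list, had 4.03 to 153 CPM (median 28.5) and 1.47 to 57.7 CPM (median 5.34) (log2 fold change -2.21, BH P = 0.00991, and -2.97 without week 9 library 75). For CCL21 and IL31RA the fitted fold change depends on the prior count and is not given. Of 8 genes of antimicrobial and mucosal defence, BPIFA1 and BPIFB1 were higher and none was lower, a share below the 35.7% of all genes that were DEG, and outside the study's list 1 of 7 was higher. These 2 encode secreted proteins of mucosal surfaces, and BPIFB1 had 0.0393 to 43.3 CPM (median 1.56) at week 5 and 1.14 to 106 CPM (median 55.1) at week 9 (log2 fold change 3.32, BH P = 0.000897). Week 5 library 48 alone had 43.2 CPM of BPIFB1, and without it the log2 fold change was 4.805. BPIFA1 stayed at or under 1.49 CPM at week 9.

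Of 12 apoptosis regulators, 4 were higher and 2 lower (median log2 fold change 0.28), and outside the study's list none of 6 was higher and 1 was lower. FAS, a death receptor, had 16.5 to 38.6 CPM (median 28.8) at week 5 and 40.6 to 76.7 CPM (median 59.99) at week 9, without overlap (log2 fold change 1.08, BH P = 1.02e-05). BCL2L1, an inhibitor of apoptosis, had 53.6 to 76.3 CPM (median 59.9) and 64.2 to 161 CPM (median 114) (log2 fold change 0.86, BH P = 9.91e-06), and the mitochondrial flavoprotein genes AIFM1 and AIFM3 had log2 fold changes of 0.72 and 1.67. The death receptor gene TNFRSF25, from outside the study's list, and the kinase gene DAPK1 were lower, with log2 fold changes of -0.51 and -0.68. Of 4 cell cycle genes with an identifier, 1 of them (MCM7) outside the study's list, TK1, thymidine kinase, was higher (0.699) and MCM7, a subunit of the replicative helicase, and CKS1B were lower (-0.38 and -0.49).

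**Figure D4:**
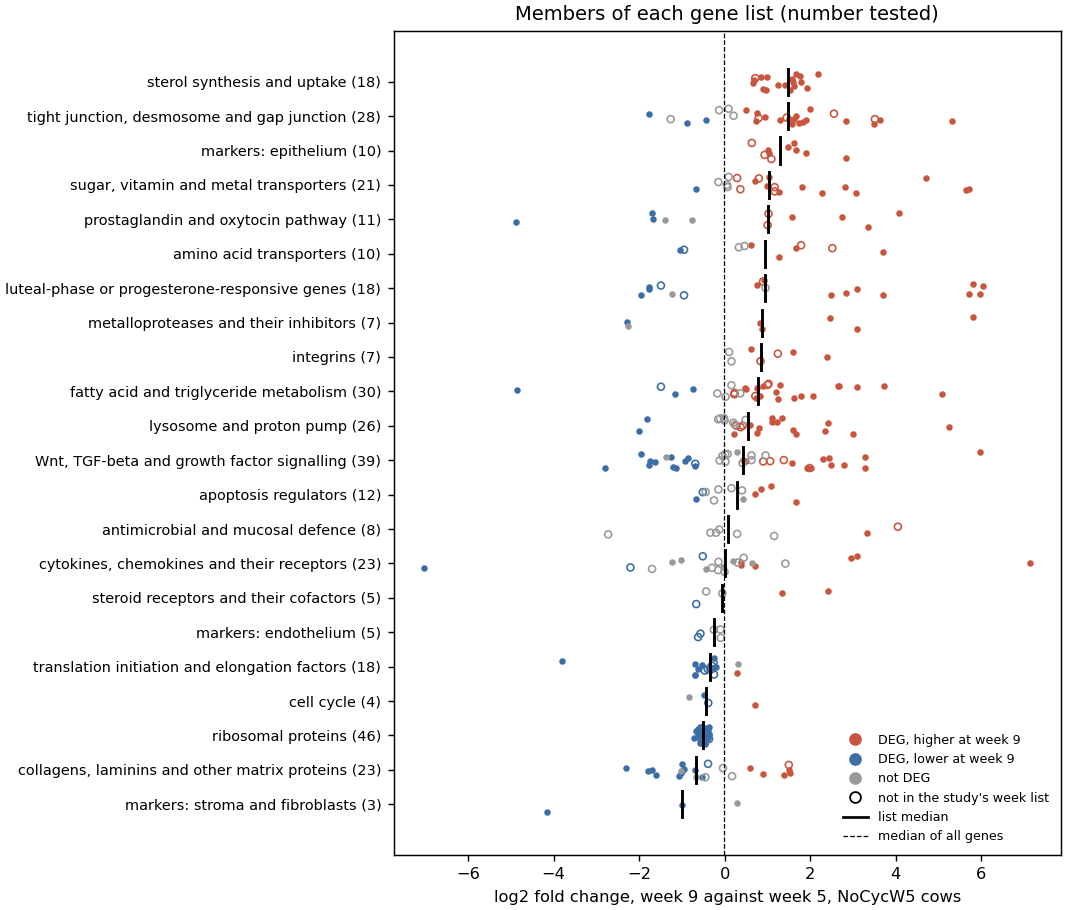
Log2 fold change (week 9 against week 5, NoCycW5 cows) of each tested member of the gene lists with at least 3 tested members. Red and blue points are DEG higher and lower at week 9, grey points are not DEG, open points are genes outside the study's list for this comparison, black bars are list medians, and the dashed line is the median of all genes (-0.01). Sterol genes lie wholly to the right and ribosomal protein genes wholly to the left, with medians of 1.48 and -0.51.

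Whether these changes differed from those of the CycW5 cows, which had a CL at week 5 already, was tested by subtracting their fold change (log2) from that of the NoCycW5 cows. In the CycW5 cows themselves, 2 genes were higher and 5 lower at week 9. The difference of the changes passed the test for 1210 genes (7.82%), 772 positive and 438 negative, and 1116 of them were also DEG between the weeks in the NoCycW5 cows. In the sterol group it passed for 17 of 18 genes, all positive, and the median log2 fold change of the group was 1.48 in the NoCycW5 and 0.09 in the CycW5 cows. In the ribosomal protein group it passed for 41 of 46 genes, all negative, with medians of -0.51 and -0.02. Further groups with such genes were the epithelial markers (8 of 10 positive), the tight junction group (14 of 28 positive), sugar, vitamin and metal transporters (11 of 21 positive), translation factors (13 of 18 negative), fatty acid metabolism (12 of 30 positive and 2 negative) and the lysosome group (10 of 26 positive). Among the 1435 tested genes in the study's own list for this comparison, which held most of the listed members, the difference passed for 583. The counts of the groups are to be read beside that share.

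The difference was 2.89 on the log2 scale for ENPP4 (standard error 0.41, BH P = 0.000172), whose log2 fold change in the CycW5 cows was -0.08. For PLLP it was 4.29 (standard error 0.62, BH P = 0.000172), with a change of -0.96 in the CycW5 cows. HPGD also differed between the groups (3.32, standard error 0.66, BH P = 0.00199), as did PTGES, which fell by 1.70 in the NoCycW5 cows and had a log2 fold change of 0.91 in the CycW5 cows (difference -2.61, BH P = 0.0091). For other genes a difference between the groups was not detected, among them OXTR (-1.49, standard error 0.97, BH P = 0.317), ESR1 (-0.17, standard error 0.34, BH P = 0.778), PTGS2 (2.55, standard error 0.84, BH P = 0.053), FAS (0.36, standard error 0.25, BH P = 0.367) and PI16 (-1.99, standard error 0.902, BH P = 0.145). Both groups shared 1 estimate of the spread. Without libraries 76 and 91, the difference passed for 3286 genes.

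**Figure D5:**
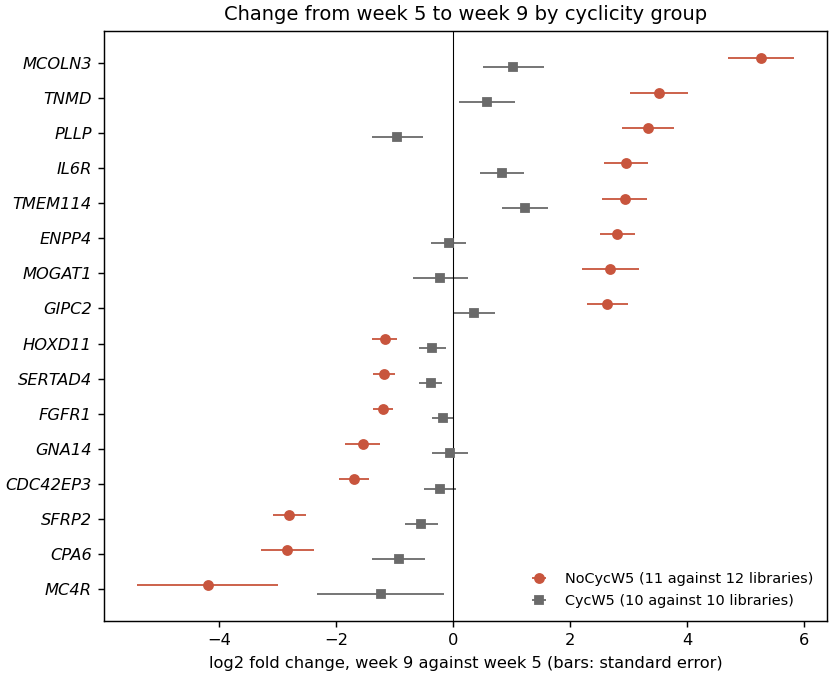
Log2 fold change (week 9 against week 5) in the NoCycW5 cows (red circles, 11 against 12 libraries) and the CycW5 cows (grey squares, 10 against 10 libraries) for the 16 genes with the largest changes among those whose NoCycW5 libraries did not overlap between weeks. Bars are standard errors of the fit. MCOLN3 changed by 5.26 and 1.03, and PLLP by 3.33 and -0.96.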

How the data were processed

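Endometrial biopsies were profiled by stranded poly(A) RNA sequencing. The deposited values were raw counts per Ensembl gene, which the authors made by trimming reads with cutadapt and fqtrim, aligning them with Hisat2 to the bovine build UMD3.1 and counting with FeatureCounts. The submitters' processing notes also name StringTie and edgeR. Every column belonged to a labelled library.

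Genes kept by edgeR's default filter for low counts (15483 of 18830) were tested with edgeR (version 4.0.16, R 4.3.3) after TMM normalization, in a quasi-likelihood fit of 43 libraries with 1 mean per group and week, and P values were adjusted by the Benjamini-Hochberg method over all genes tested. The fit was tested on simulated data. The 7 libraries of cows cycling without P4 were left out of the fit. Symbols came from 9 of the study's lists of DEG, which named 2338 identifiers, and a gene outside these lists has no symbol here. Further lists of the study were not used here.

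The members, gene lists and tests were chosen with earlier results of these data known. Named genes were the 12 with the smallest BH P in each direction, the 8 with the largest fold change in each direction among genes without overlap and with a mean of at least 1 CPM in the higher week, up to 4 DEG of each list in each direction, all tested steroid receptor, prostaglandin and cell marker genes, and members that moved against their list. Some genes that this rule names are not reported here. Alternatives were DESeq2 (version 1.42.0) and its size factors, limma-voom (limma 3.58.1) with and without library quality weights, no filter, a filter of 1 CPM in 10 libraries, a fit of the NoCycW5 libraries alone and leaving out each library. Leaving out libraries 76 and 91 together was added after the data were seen. Each library had at least 22707284 counted reads.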

Additional observations from a re-analysis of the deposited data

Results flagged for a closer look

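For 33 of the genes named by smallest BH P or largest fold change, the change from week 5 to week 9 in the NoCycW5 cows differed from that in the CycW5 cows, by edgeR's test of the difference itself (BH P of at most 0.0482). These genes were chosen for their change in the NoCycW5 cows, and 7.82% of all genes tested passed the same test. The difference, NoCycW5 minus CycW5 on the log2 scale, was positive for 18 genes: 4.66 for SLC5A1, 4.29 for PLLP, 4.23 for MCOLN3, 2.94 for TNMD, 2.91 for MOGAT1, 2.89 for ENPP4, 2.75 for ANKRD33B, 2.72 for ENPP5 and 2.71 for SLC23A1. It was 2.47 for TMEM144, 2.27 for GIPC2, 2.12 for IL6R, 1.71 for TMEM114, 1.602 for FDFT1, 1.55 for EZR, 1.41 for CDCP1, 0.899 for RNF157 and 0.54 for RUNDC1. Among lower genes it was -2.25 for SFRP2, -1.900 for CPA6, -1.49 for GNA14, -1.47 for CDC42EP3, -1.03 for FGFR1, -0.89 for EDNRA and -0.85 for RBPMS. For the ribosomal protein genes, whose reads can be split among near-identical copies, it was -0.600 for RPL13, -0.54 for RPL29, -0.52 for RPL14, -0.499 for RPS3, -0.48 for RPL36, -0.47 for RPL34, -0.45 for RPL19 and -0.36 for RPS25.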

How the results depend on the processing

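No paired analysis was possible because the labels do not say which libraries came from the same cow. The 5533 DEG were 5367 to 5957 under DESeq2, its size factors, limma-voom, either filter and the fit of the NoCycW5 libraries alone, and 8562 under limma-voom with library quality weights, which also raised the DEG of at least 2-fold from 1487 to 2274. The genes whose changes differed between NoCycW5 and CycW5 cows were the most sensitive, with 1210 in the reported fit, 1848 under DESeq2, 621 under limma-voom, 3161 with library quality weights and 3286 without libraries 76 and 91. Leaving out 1 library at a time gave 4928 to 5974 DEG, 1367 to 1694 of at least 2-fold, 270 to 285 DEG among listed members, and 825 to 2130 genes that differed between the groups of cows, of which 2130 without library 76 and 1979 without library 91. Genes without overlap numbered 119, 123 to 242 when 1 library was left out (236 without library 76, 242 without library 91) and 1063 without both. A smaller group overlaps less by construction. Libraries 76 and 91 were also picked for lying among the week 5 libraries, so the counts without both rise by construction. The cause of the other shifts was not tested. No named gene that was a DEG in the reported fit changed direction under any of these alternatives. Calls of LPL and SLC7A2 (edgeR) were lost under both limma-voom fits (BH P = 0.0586 and 0.0722 without weights), CCNO under limma-voom (BH P = 0.0515) and OXTR without a filter (BH P = 0.0522). Among single libraries, the edgeR call was lost for ESR1 and CKS1B without library 68 (BH P = 0.0547 and 0.0524), SPP1 without 61 (0.114), SLC7A2 without 48 (0.0564), ROR1 without 55 (0.0567), ACSL4 without 80 (0.143) and FABP5 without 47, 63 or 82 (BH P of at most 0.06). Highest BH P was 0.0764 for OXTR and 0.112 for SLC39A14. PTGDR and OXT, not DEG in the reported fit, were DEG under limma-voom (BH P = 0.0137 and 0.0254). Of the 5533 DEG, 4740 were DEG under all 7 alternatives and 4255 in all 23 fits with 1 library left out. What limits the precision was not tested.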

Other observations

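Libraries 75 and 80 lay between the other week 9 libraries and those of week 5 in part of the genes. Of the genes that changed at least 2-fold, 41.3% in library 75 and 30.6% in library 80 lay inside the range of week 5. OXTR had 38.2 CPM in library 75 and 83.2 CPM in library 80, against a week 9 median of 9.08 CPM. Library 80 had the lowest summed abundance of the 5 endothelial markers, 179 CPM, where the week 9 median was 423 CPM, and the highest ENPP4 of all NoCycW5 libraries, 619 CPM.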
